A study of Mus musculus with 2 samples.

Results

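The nuclear-encoded subunits of respiratory complex I were followed in long-read RNA sequencing of the mouse gastrocnemius, the large calf muscle. Members were all annotated genes whose symbol starts with Nduf, followed by a, b, c, s, v or ab and then only digits, which gave 37 of 14900 annotated genes with reads. All 37 had reads in both libraries. The series holds 1 group of 2 libraries, labelled biological replicates 2 and 1, and no second condition. Both came from male B6CASTF1/J mice aged 18 to 20 months, which are F1 animals with a C57BL/6J and a CAST/EiJ parent. Total RNA (2 µg per library) was spiked with Lexogen SIRVs and with ERCC transcripts from Ambion mix 1. By their labels the libraries are separate biosamples under a shared donor entry. Whether a library stands for 1 mouse or for pooled tissue is not given in the sources used here, so the tests compare these libraries and nothing wider.

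Complex I takes electrons from NADH, passes them along a chain of flavin and iron-sulphur clusters to ubiquinone, and uses the energy to pump protons across the inner mitochondrial membrane. It has the shape of an L. The matrix arm carries the electron path, and the membrane arm holds the proton pumps, whose central parts are made by the mitochondrial genome. Core subunits are shared with bacteria and do the chemistry, while the accessory subunits surround and stabilise them. Skeletal muscle fibres differ in how many mitochondria they hold, with more in slow and intermediate fibres than in the fastest ones. Complex I subunits are made in a common stoichiometry, but their mRNAs need not be.

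Replicate 2 held 1173233 reads and replicate 1 held 1509380. The 8 markers of fast fibres summed to 238800 counts per 1000000 reads (CPM) in replicate 2, against 224600 CPM in replicate 1. Most of both sums was Atp2a1, the calcium pump of fast fibres, with 174800 CPM in replicate 2 and 151200 CPM in replicate 1. The median log2 ratio of the 8 was -0.51, with 5 of them below 0. Ptprc, the pan-leukocyte marker, had 0 reads in replicate 2 and 1 read in replicate 1. All 8 markers of slow fibres were higher in replicate 2, with a sum of 4503 CPM there and 337.9 CPM in replicate 1. Of the fast markers 1 was called higher in replicate 2 and 2 lower. Of the markers of other cells tested, 2 of 4 for endothelium, 2 of 3 for smooth muscle, 1 of 2 for adipocytes and 1 of 3 for Schwann cells were called higher. Those of fibroblasts and blood gave 0 calls of 4 each, and Cd74, the only immune marker tested, was lower. Spike-ins made up 0.590% of replicate 2 and 2.71% of replicate 1.

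The 37 members took 12000 reads in replicate 2 and 20048 in replicate 1, which is 1.02% and 1.33% of each library (1.18% ± 0.216, SD, n = 2). The exact 95% Clopper-Pearson intervals of these shares did not overlap. They cover counting error only. The median member stood at 260.8 CPM in replicate 2 and 318.7 CPM in replicate 1, against 20.5 CPM and 17.2 CPM for the median of the 9032 genes tested. The members spanned 52.0 to 718 CPM in replicate 2 and 91.4 to 1440 CPM in replicate 1. Each long read was counted once, on 1 transcript model, so CPM is not divided by transcript length. Whether the reads stand for independent molecules is not given in the sources used here. The ratio of the libraries ran with transcript length, as shown further on. In tissue RNA, fewer cells of a type and less RNA per cell cannot be told apart.

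The core of the matrix arm held 4 of the 6 highest means. Ndufs1 carries several iron-sulphur clusters and is the largest subunit of the complex. It had 718 CPM in replicate 2 and 498 CPM in replicate 1 (from 842 and 752 reads), which made it the most read member in replicate 2 and the sixth in replicate 1. Ndufv1 binds NADH and the flavin at the entry of the electron path, and it had 644 CPM in replicate 2 and 521 CPM in replicate 1. Its partner Ndufv2, which holds an iron-sulphur cluster beside it, had 447 CPM in replicate 2 and 493 CPM in replicate 1. For Ndufs1 and Ndufv1 the counting intervals of the libraries lay apart with replicate 2 higher, and for Ndufv2 they overlapped.

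Other core subunits had lower counts in replicate 2. Ndufs7, which carries the last iron-sulphur cluster of the chain, had 495 CPM in replicate 2 and 655 CPM in replicate 1. Ndufs3, another core subunit of this module, had 343 CPM in replicate 2 and 415 CPM in replicate 1. In both genes the counting intervals lay apart with replicate 2 lower, a direction that turned when ratios were centred on transcript length, as given further on. Ndufs8, which holds iron-sulphur clusters between them and the NADH end, stood apart from the other core genes with 127 CPM in replicate 2 and 146 CPM in replicate 1. Ndufs3 was above it by more than the spread of both libraries.

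The 9 accessory genes of the matrix arm had medians of 192 CPM in replicate 2 and 277.6 CPM in replicate 1. In each of the 9 the ratio of the libraries lay below 0. Ndufa12, Ndufs4 and Ndufs6 sit where the NADH-binding part joins the rest of the arm. Ndufa12 had 302.6 CPM in replicate 2 and 432 CPM in replicate 1. Ndufs4 had 110.0 CPM in replicate 2 and 145 CPM in replicate 1. Ndufs6, which binds zinc, had 59.7 CPM in replicate 2 and 91.4 CPM in replicate 1. These 3 neighbours in the complex thus spanned the range of their group in both libraries, from the most read to the least read gene. Ndufa9, which binds NADPH and joins the arms, had 141 CPM in replicate 2 and 151 CPM in replicate 1, with overlapping intervals. Ndufa6 belongs to the LYR family that docks the acyl carrier protein and had 225 CPM in replicate 2 and 319 CPM in replicate 1. The other 4 are small subunits on the surface of the arm, Ndufa2, Ndufa5, Ndufa7 and Ndufv3, and they lay between 162 CPM (Ndufa7) and 270.2 CPM (Ndufa2) in replicate 2, and between 253 CPM (Ndufa7) and 429 CPM (Ndufa2) in replicate 1.

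The 19 accessory genes of the membrane arm had medians of 216 CPM in replicate 2 and 299 CPM in replicate 1. Ndufa13, also known as GRIM-19, led them with 464 CPM in replicate 2 and 609.5 CPM in replicate 1. Ndufs5 was the lowest as counted, with 52.0 CPM in replicate 2 and 100 CPM in replicate 1. With the reads of its near-identical pseudogene BC002163 added, it had 86.9 CPM in replicate 2 and 151 CPM in replicate 1, above Ndufc2. Ndufs5 belongs with Ndufa8, Ndufb7 and Ndufb10 to the subunits on the intermembrane side that are held by paired disulphide bonds. Ndufa8 had 200.3 CPM in replicate 2 and 229.9 CPM in replicate 1, Ndufb7 had 320.5 and 412 CPM, and Ndufb10 had 294 and 291.5 CPM, all above Ndufs5 in each library. Ndufc1 and Ndufc2 are neighbours in the complex too, yet Ndufc1 had 295 CPM in replicate 2 and 521 CPM in replicate 1, while Ndufc2 had 72.5 and 132.5 CPM. The remaining genes of this arm, Ndufa1, Ndufa3, Ndufa10, Ndufa11, Ndufb2 to Ndufb6, Ndufb8, Ndufb9 and Ndufb11, lay between 132 CPM (Ndufa1) and 342 CPM (Ndufb9) in replicate 2, and between 173 CPM (Ndufb6) and 474 CPM (Ndufb9) in replicate 1. Among them Ndufa10, which has the fold of a nucleoside kinase, was the only one whose ratio lay above 0, with 311 CPM in replicate 2 and 266 CPM in replicate 1. Its intervals overlapped.

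Ndufab1, the mitochondrial acyl carrier protein found in both arms and needed for lipoic acid synthesis, had 302 CPM in replicate 2 and 334 CPM in replicate 1. Ndufa4 carries a complex I symbol but its protein is now placed in complex IV, cytochrome c oxidase. It was the most read member by mean, with 694 CPM in replicate 2 and 1440 CPM in replicate 1 (from 814 and 2174 reads). Without it, the share of members was 0.953% in replicate 2 and 1.18% in replicate 1. When members were ordered by mean CPM, the ranges over both libraries overlapped for all but 1 of the 36 pairs of neighbours, Ndufab1 above Ndufb10, so single steps in this order do not exceed the spread between libraries.

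**Figure D1:**
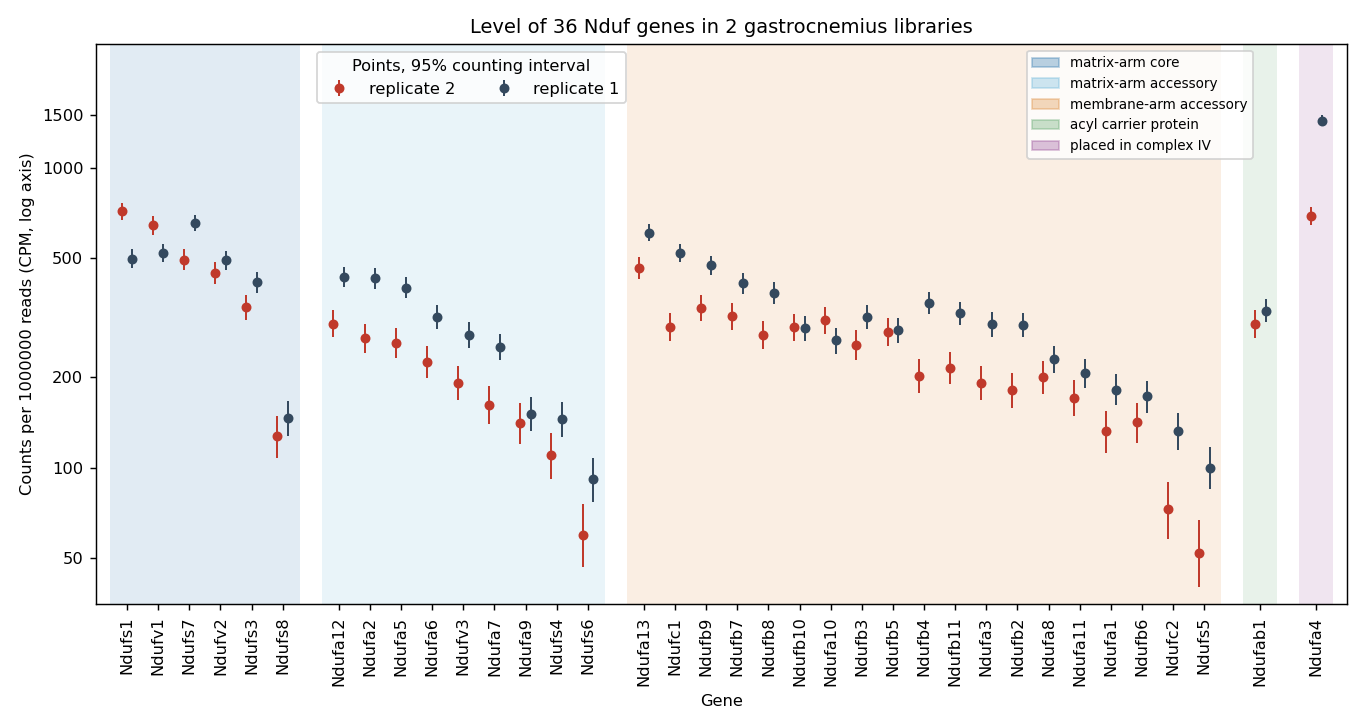
Level of 36 of the 37 genes in counts per 1000000 reads on a log axis, with genes on the x axis grouped by place in the complex and ordered by mean. Points with 95% counting intervals give replicate 2 on the left of each pair and replicate 1 on the right, and most red points (replicate 2) lie below their partners, except for Ndufs1, Ndufv1, Ndufa10 and Ndufb10.

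Fisher's exact test (two-sided) set the reads of a gene against the rest of each library, with Benjamini-Hochberg adjustment over 9032 genes, and a call also needed a difference of at least 2-fold. Of the 37 members 0 were called higher and 1 lower in replicate 2, against 8.24% of all genes called higher and 2.04% called lower. At any fold, 26 of 37 members had an adjusted p below 0.05, against 21.4% of all genes. Of these 26 members 2 were higher in replicate 2 and 24 lower, against 1339 higher and 593 lower of the 9032 genes. This test reaches a low p more easily at high counts. The median member had 260.8 CPM in replicate 2 and 318.7 CPM in replicate 1, against 20.5 and 17.2 CPM for all genes tested. The larger share of members with a low p therefore does not show larger differences. The called member was Ndufa4, with a log2 ratio of replicate 2 over replicate 1 of -1.05 on the log2(CPM + 1) scale (adjusted p = 3.88e-75 by Fisher's exact test). The highest ratios belonged to Ndufs1 at 0.53 and Ndufv1 at 0.30 (adjusted p = 1.45e-11 and 0.00041 by Fisher's exact test), which were the 2 higher ones.

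In all, 33 members had a ratio below 0 and 4 had one above 0, namely Ndufs1, Ndufv1, Ndufa10 at 0.23 and Ndufb10 at 0.01. The median member was at -0.40, against 0.19 for all genes tested. By place in the complex, the medians were -0.20 for the 7 core genes, -0.53 for the 9 matrix-arm accessory genes and -0.46 for the 19 membrane-arm accessory genes. The lowest of the uncalled ratios were -0.93 for Ndufs5, -0.86 for Ndufc2, -0.82 for Ndufc1 and -0.80 for Ndufb4. These 4 also passed the fold minimum when libraries were scaled by TMM, which moved the median of all genes to -0.02, so that 5 members were then called lower and 0 higher. Over all genes TMM scaling gave 418 calls higher and 398 lower, in place of 744 and 184. The median of the members was -0.62 on that scale.

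Transcript length ran with these ratios. The most read annotated transcript of a member had a median length of 760.5 nucleotides, against 2732 nucleotides over all genes tested. Below 600 nucleotides, 10 members had a median log2 ratio of -0.62 and all 266 genes of that length had -0.60. Between 600 and 1000 nucleotides the medians were -0.43 for 14 members and -0.41 for 581 genes. Between 1000 and 1500 nucleotides they were -0.21 for 6 members and -0.22 for 930 genes. From 1500 nucleotides on, the 6 members had 0.04 and the 6848 genes 0.30. In each class below 1500 nucleotides the median of the members thus lay within 0.02 of the median of all genes of like length. Single members spread more widely, for example from -1.05 to 0.01 between 600 and 1000 nucleotides. Spearman's rho between length and ratio was 0.57 over 36 members and 0.49 over 8625 genes, given as a description since all points share the same pair of libraries.

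After the running median of 301 genes of like length was subtracted, the median member was at -0.01 and 18 members lay above 0 and 18 below, with 0 calls in either direction. Ndufa13 has no read on an annotated transcript and so had no length. The range then ran from -0.59 for Ndufc1 to 0.46 for Ndufb10. Ndufa4 stood at -0.52 on this scale, Ndufs1 at 0.35 and Ndufv1 at 0.40. Ndufs7 at 0.04 and Ndufs3 at 0.09 then also lay above 0. The core genes had 5 of 7 values above 0, with a median of 0.09. The membrane-arm accessory genes had 11 above 0 and 7 below, with a median of 0.08, and the matrix-arm accessory genes had 2 above 0 and 7 below, with a median of -0.06. What share the slow-fibre content of replicate 2, seen in the marker sums above, has in any of these values was not tested.

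**Figure D2:**
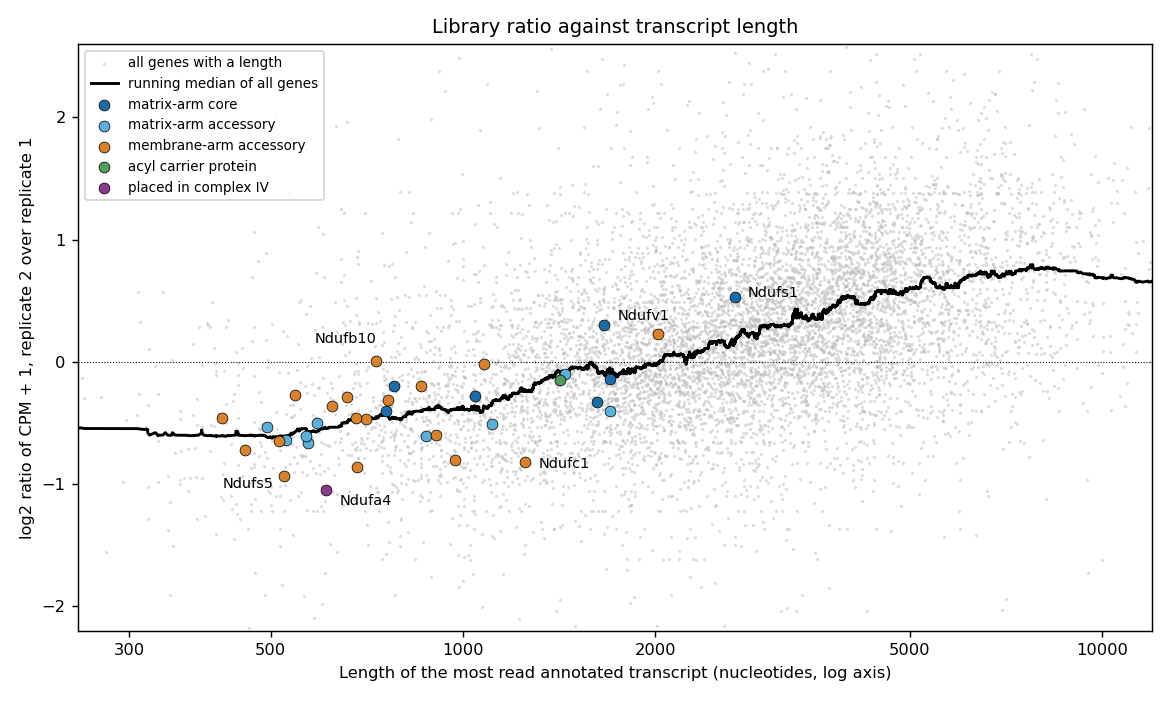
Log2 ratio of replicate 2 over replicate 1 (CPM + 1) on the y axis against length of the most read annotated transcript in nucleotides on a log x axis. Grey dots are all 8625 genes with a length, the black line is their running median, and the 36 coloured points are members by place in the complex, which scatter around the line from the short accessory genes at the left to Ndufs1 at the right. A few grey dots outside the axis limits are not drawn.

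Each read had been assigned to a class by TALON, the program named in the deposited annotations. Reads of members matched a complete annotated transcript in 83.5% of cases in replicate 2 and 80.7% in replicate 1, against 60.8% and 64.2% over all annotated genes. Incomplete splice matches, reads whose introns form only a stretch of an annotated chain, made up 13.6% of member reads in replicate 2 and 17.3% in replicate 1, against 9.55% and 10.2% over all genes. Models with an unannotated splice site took 1.29% of member reads in replicate 2 and 0.998% in replicate 1, against 22.3% and 18.9% over all genes. The shares over all genes are weighted by reads, and Atp2a1 weighs heavily in them. It had 205059 of 1124063 reads in replicate 2 and 228292 of 1436578 in replicate 1, with none on an annotated transcript. Shares over all genes without Atp2a1 were not computed, so the distance of the members from other genes in these classes is uncertain. The annotated class exceeded 90% of reads in both libraries for 28 of the 37 members.

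The incomplete reads were concentrated in 4 genes, Ndufa13, Ndufs7, Ndufb3 and Ndufa4, each with at least 20% of its reads in that class in both libraries. Without these genes, chosen by their values, the annotated class took 94.3% of member reads in replicate 2 and 94.6% in replicate 1, and incomplete matches took 2.38% and 2.92%. In each of the 4 genes a particular model held nearly all incomplete reads, and every such model lacked exons at the 5′ end.

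**Figure D3:**
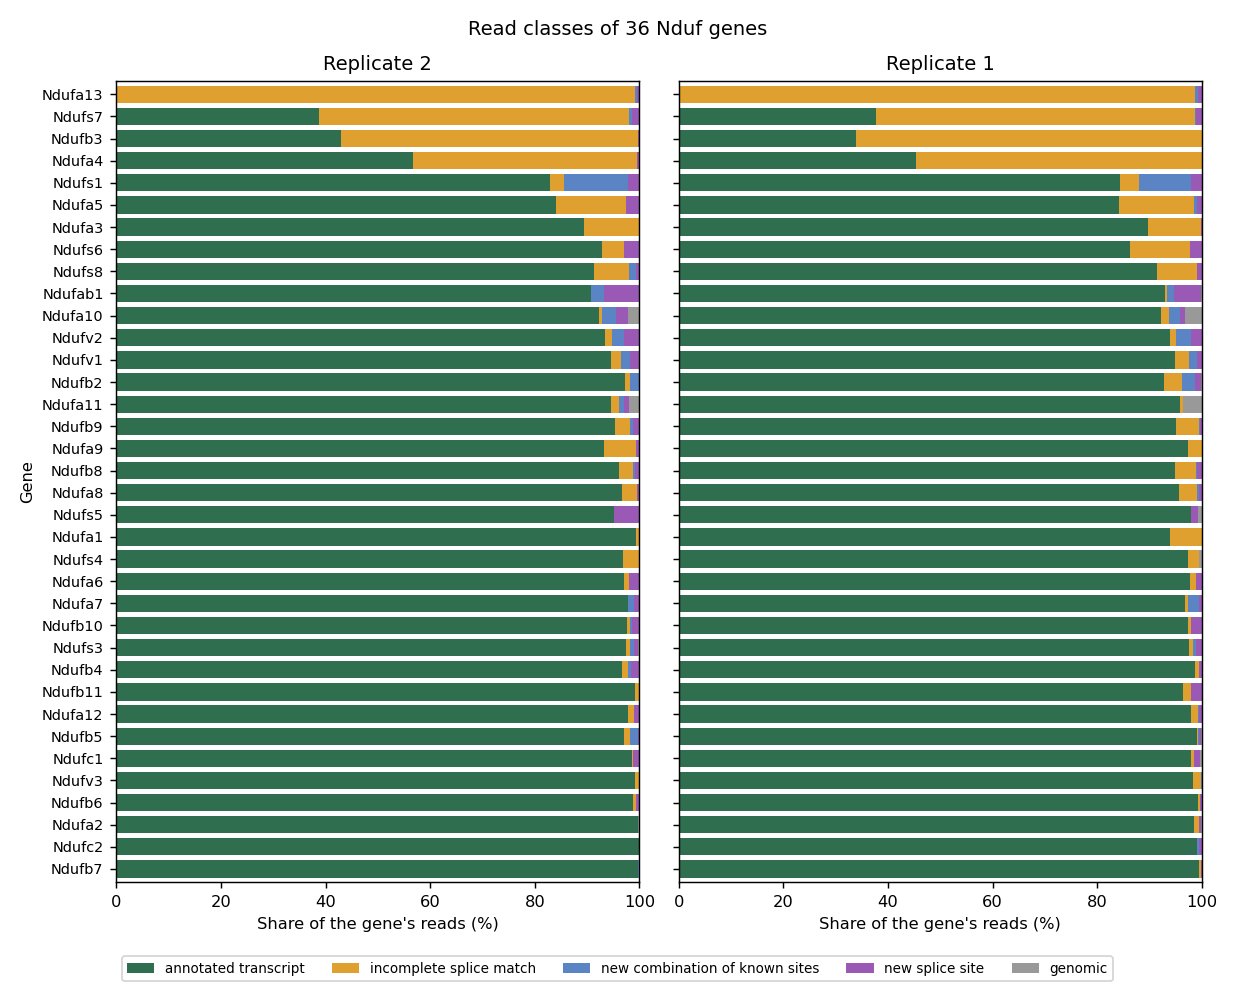
Share of reads by read class in 36 of the genes in percent, with replicate 2 in the left panel, replicate 1 in the right panel and genes ordered from the lowest annotated share at the top. Ndufa13 is almost all incomplete splice match in both panels, Ndufs7, Ndufb3 and Ndufa4 are divided between that class and the annotated one, and the other genes are mostly annotated.

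Ndufa13 lies on chromosome 8, minus strand, at chr8:69894180-69902558 (mm10), and has 1 annotated transcript, Ndufa13-201, with 5 exons and 1251 nucleotides. No read was listed on it. Instead 97.8% of its reads in replicate 2 (532 of 544) and 97.7% in replicate 1 (899 of 920) sat on a model of 573 nucleotides with exons 2 to 5. Exon 1, at chr8:69901881-69902558, is 678 nucleotides of untranslated sequence, and the start codon lies in exon 2, so exons 2 to 5 hold all 432 coding bases (counted without the stop codon). RefSeq places a start of the gene at position 69902020, which is inside the GENCODE exon 1. The neighbouring gene Yjefn3 overlaps Ndufa13 on the same strand with 12 reads in replicate 2 and 33 reads in replicate 1.

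Ndufa4 lies at chr6:11900292-11907497 on the minus strand. Its annotated transcript Ndufa4-205 has 4 exons, and the incomplete model has exons 3 and 4 only. The model took 345 of 814 reads in replicate 2 (42.4%, interval 39.0% to 45.9%) and 1172 of 2174 reads in replicate 1 (53.9%). Ndufa4-205 took 454 reads (55.8%) in replicate 2 and 980 reads (45.1%) in replicate 1, so the order of the models was reversed between the libraries. The model holds at most 115 of the 246 coding bases. When only reads on annotated transcripts were counted, the log2 ratio of Ndufa4 was -0.61 and it had no call.

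Ndufs7 lies at chr10:80249121-80256794 on the plus strand. Exons 7 and 8 of its 8 exons made up a model with 332 of 581 reads (57.1%) in replicate 2 and 585 of 989 reads (59.2%) in replicate 1, while Ndufs7-201 took 38.4% and 37.2%. The model holds at most 184 of 672 coding bases. The libraries differed by less than their counting intervals here. Ndufb3, at chr1:58586384-58595964 on the plus strand, showed the same arrangement in its shortest form, with reads on the last of 3 exons alone. These unspliced reads took 56.1% in replicate 2 (169 of 301) and 65.8% in replicate 1 (316 of 480), and Ndufb3-201 took 42.9% and 34.0%.

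The coding exons at which the incomplete models of Ndufa4 and Ndufs7 begin are shown because they mark where the recovered part of these mRNAs starts. Both are from GENCODE M21 transcripts, in the direction of the mRNA; exon 3 of Ndufa4 is chr6:11905202-11905262 on the minus strand, and exon 7 of Ndufs7 is chr10:80255924-80256012 on the plus strand. No bases are set in capitals, since the models begin with the whole exon.
Ndufa4 exon 3: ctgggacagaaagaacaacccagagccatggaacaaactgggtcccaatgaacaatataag
Ndufs7 exon 7: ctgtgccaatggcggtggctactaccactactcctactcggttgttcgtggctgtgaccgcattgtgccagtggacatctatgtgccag
The incomplete models of Ndufa13, Ndufa4, Ndufs7 and Ndufb3 start exactly at an annotated exon boundary, and the tables do not give the ends of single reads, so the base within the exon at which a read began is not known and the coding bases above are upper limits. The origin of these shorter reads was not tested.

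**Figure D4:**
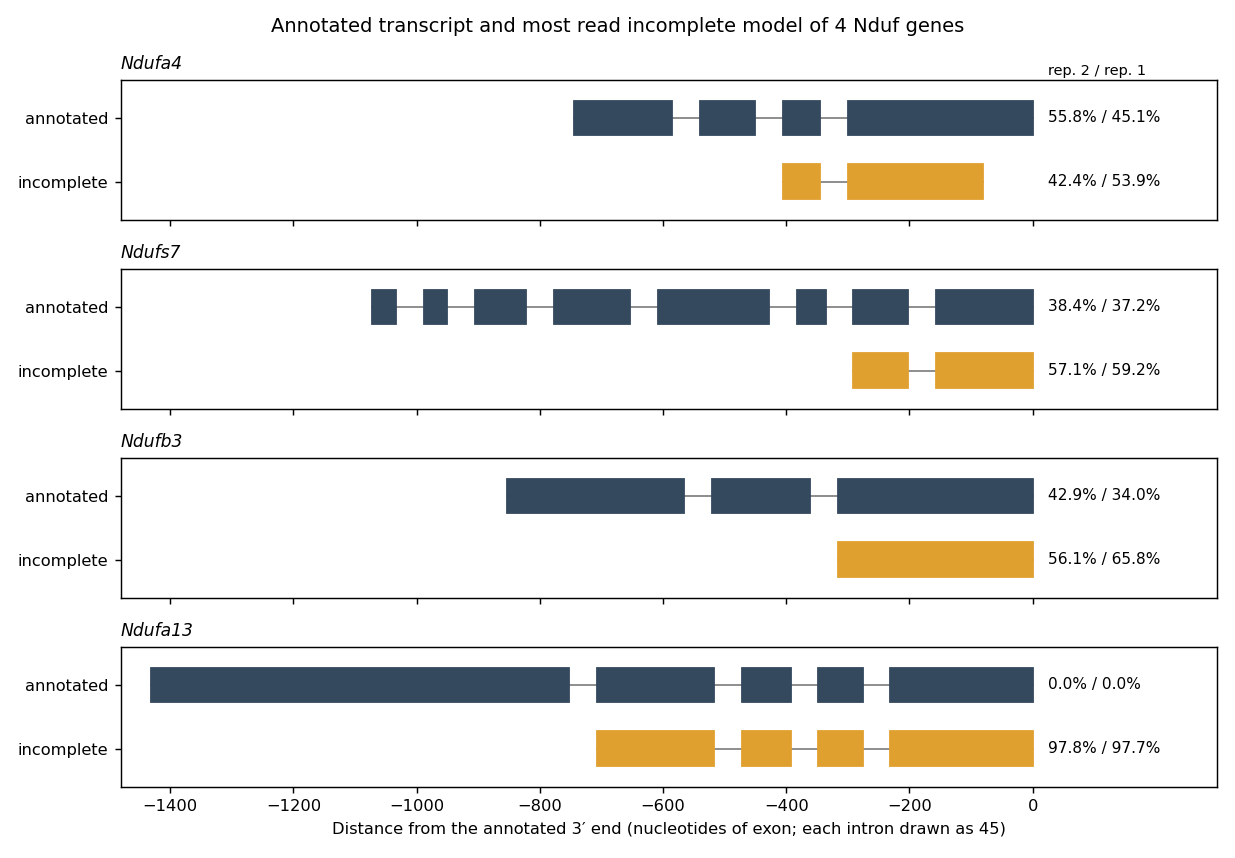
Exons of the annotated transcript (dark, upper row) and of the most read incomplete model (yellow, lower row) for 4 genes, drawn by distance from the annotated 3′ end in nucleotides of exon with each intron set to 45. The shares of the gene's reads at the right are for replicate 2 and then replicate 1, and each yellow model lacks the 5′ exons of the dark one.

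Most members had 1 transcript that dominated in both libraries. The most read model or transcript held over 90% of the reads in both libraries in 26 of 37 members (70.3%), against 20.0% of the 4657 genes with a share to compare. The median share was 93.8% in replicate 2 and 94.6% in replicate 1, against 78.4% and 76.0% over all genes. Member transcripts are shorter, with a median of 760.5 nucleotides against 2732 over all genes tested. Shares were not compared among genes of like length. At the upper end, all 85 reads of Ndufc2 in replicate 2 and 198 of 200 in replicate 1 were on Ndufc2-201. The dominant entry was an annotated transcript in 33 members, and it differed between the libraries in Ndufa4. In Ndufb2 there was no single dominant entry in replicate 1, where Ndufb2-202 and Ndufb2-205 tied at 207 reads each. In the other 35 members it was the same in both libraries.

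The share of the dominant entry was compared between libraries by Fisher's exact test with Benjamini-Hochberg adjustment over 4535 genes. Of the 37 members 2 passed, Ndufa4 and Ndufab1, against 2.65% of all genes. For the short model of Ndufa4 the difference of replicate 2 minus replicate 1 was -11.5 percentage points (adjusted p = 3.18e-06 by Fisher's exact test). Ndufab1-203 took 78.5% of the reads of its gene in replicate 2 (278 reads) and 87.9% in replicate 1 (443 reads), a difference of -9.37 percentage points (adjusted p = 0.0163 by Fisher's exact test). Ndufab1-201, which has the same coding sequence and another last exon, took 11.3% in replicate 2 (40 reads) and 4.76% in replicate 1 (24 reads). This part of the difference thus lay in the 3′ untranslated region. Ndufab1-201 has 3479 nucleotides and Ndufab1-203 has 1416. In Ndufa4 the short model has 281 nucleotides and Ndufa4-205 has 610. In both genes the longer form thus had the higher share in replicate 2. Ndufb2, which did not pass, went the other way. Its longer form Ndufb2-205 (4371 nucleotides as annotated) took 39.4% in replicate 2 and 45.9% in replicate 1, beside Ndufb2-202 with 455 nucleotides. Whether these differences in share go with length was not tested.

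The next members by p did not pass. For Ndufa1, a small membrane-arm subunit encoded on the X chromosome, Ndufa1-201 took 99.4% in replicate 2 and 93.8% in replicate 1, with 1 and 11 unspliced reads in the last exon (adjusted p = 0.115 by Fisher's exact test). For Ndufb2, Ndufb2-202 took 57.7% in replicate 2 and 45.9% in replicate 1 (adjusted p = 0.116 by Fisher's exact test). For Ndufb3, the unspliced model took 56.1% in replicate 2 and 65.8% in replicate 1, a difference of -9.69 percentage points (adjusted p = 0.169 by Fisher's exact test).

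**Figure D5:**
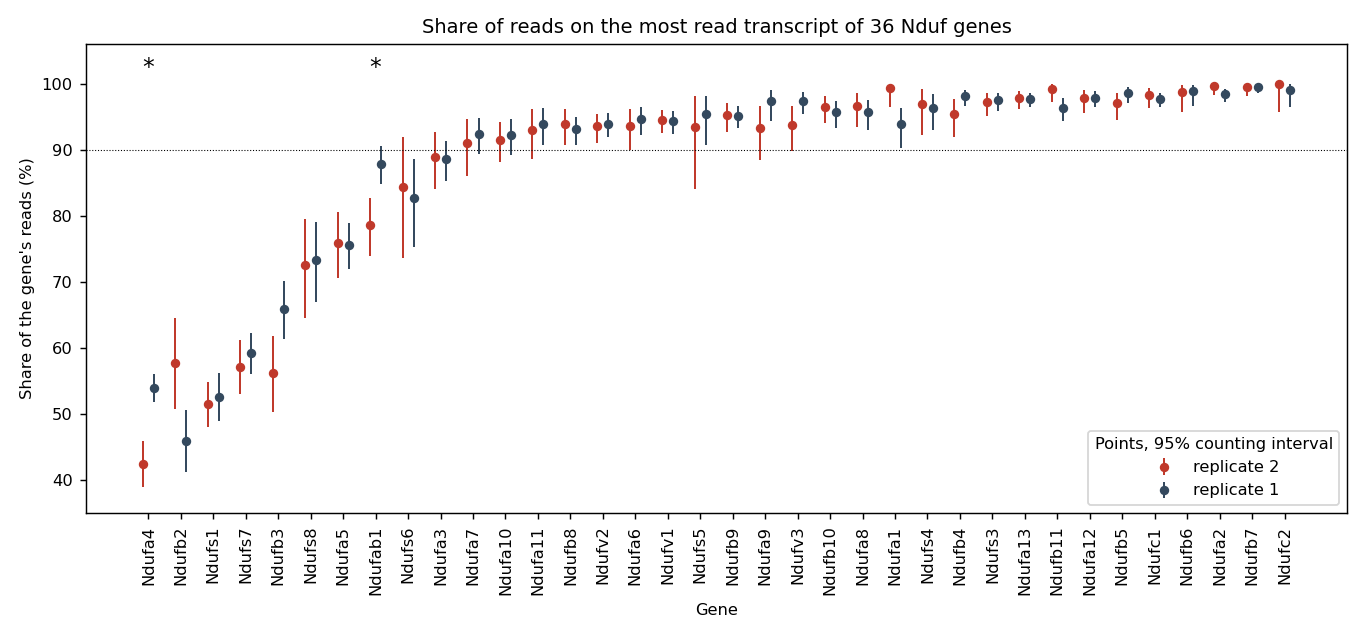
Share of reads of 36 of the genes on the most read model or transcript in percent, with 95% counting intervals, genes on the x axis in order of the mean, replicate 2 left and replicate 1 right in each pair. The dotted line marks 90%, stars mark Ndufa4 and Ndufab1, which passed the test of a difference between libraries, and the left end holds the genes with more than 1 frequent model.

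Annotated second forms were followed in 5 further members. In Ndufs1 the forms differ before the start codon. Of the reads that reached an exon 1 donor site, 60.4% in replicate 2 (493 of 816) and 61.1% in replicate 1 (439 of 718) used the upstream donor at position 63176586 of chromosome 1, and 39.6% and 38.9% used a donor 158 bases downstream in the direction of transcription, at 63176428. An extra exon of 104 bases at chr1:63172154-63172257, found in 2 annotated transcripts, was present in 82 of these reads in replicate 2 (10.05%) and in 49 (6.82%) in replicate 1. Ndufs1-201 and Ndufs1-203 share their coding sequence, so the choice of donor between them concerns only the 5′ untranslated region. The coding sequence of the transcripts with the extra exon was not compared. The donor shares differed between libraries by less than 1 percentage point, while the difference in the extra exon was larger and was not tested.

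Ndufs8 likewise has annotated forms with an identical coding sequence, which differ only outside it. Ndufs8-205 took 72.5% in replicate 2 and 73.3% in replicate 1, and Ndufs8-201 took 16.8% and 15.4%. In Ndufb2 Ndufb2-202 and Ndufb2-205 differ at the end of exon 3, where Ndufb2-205 uses a donor site 4 bases upstream, past the stop codon. As annotated they also differ at the 3′ end. Ndufb2-202 ends at position 39599471 of chromosome 6 and has 455 nucleotides, while Ndufb2-205 ends at 39603382 and has 4371. Ndufb2-205 took 39.4% in replicate 2 (84 reads) and 45.9% in replicate 1 (207 reads).

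In Ndufa5 and Ndufv3 the second form changes the protein. Ndufa5-202 lacks exon 3, a coding exon of 117 bases, which leaves 231 of 348 coding bases, and it took 7.84% in replicate 2 (24 reads) and 8.47% in replicate 1 (51 reads). Ndufv3 is known for a long form with a large extra exon. That exon 3, of 1092 bases, lies at chr17:31527310-31528401, and the form that holds it, Ndufv3-201, took 5.33% in replicate 2 (12 reads, interval 2.79% to 9.13%) and 0.955% in replicate 1 (4 reads, interval 0.261% to 2.43%). The short form Ndufv3-202 took 93.8% in replicate 2 and 97.4% in replicate 1. Its share did not pass the test between libraries (adjusted p = 0.381 by Fisher's exact test).

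The sequences at which these forms part are given from GENCODE M21 transcripts in the direction of the mRNA. Exon 3 of Ndufa5 (chr6:24522659-24522775, minus strand) is absent from Ndufa5-202. Exon 3 of Ndufb2 (chr6:39598266-39598365, plus strand) is shown with the 4 bases that only Ndufb2-202 holds in capitals. The junction of Ndufv3-202 joins the last 30 bases of exon 2 in lower case to the next 30 bases in capitals (chromosome 17, plus strand), between which Ndufv3-201 holds its extra exon.
Ndufa5 exon 3: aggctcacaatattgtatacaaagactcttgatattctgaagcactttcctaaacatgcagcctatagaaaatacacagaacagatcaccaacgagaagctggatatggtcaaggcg
Ndufb2 exon 3: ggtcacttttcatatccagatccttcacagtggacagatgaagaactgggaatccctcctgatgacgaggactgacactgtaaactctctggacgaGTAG
Ndufv3-202 junction: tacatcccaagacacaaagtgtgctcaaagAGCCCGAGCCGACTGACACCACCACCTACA

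Copies of these genes could draw reads away from them. A search of the most read annotated transcripts against all GENCODE M21 transcripts found 8 members with a processed pseudogene that matched at least 50% of the query at 90% identity or more. Of these 8 pseudogenes 3 had any reads. BC002163 is 99.4% identical to Ndufs5 over 60.8% of its transcript with 41 reads in replicate 2 and 77 reads in replicate 1, beside 61 and 151 reads on Ndufs5. The count of Ndufs5 is therefore uncertain. With both genes added, the log2 ratio was -0.79. The other copies had at most 1 read in a library. Antisense models crossed 13 members, with at most 6 reads per library in any of them.

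Genes that work with the members were followed as fixed lists. Of 19 assembly factors, which build complex I and are not part of it, 17 could be tested, with 1 higher and 1 lower in replicate 2. Their median was 21.7 CPM in replicate 2 and 25.2 CPM in replicate 1. Tmem186 had 26.4 CPM in replicate 2 and 8.61 CPM in replicate 1. It was called higher (log2 ratio 1.51, adjusted p = 0.00342 by Fisher's exact test). Ndufaf5, which modifies Ndufs7, had 17.1 CPM in replicate 2 and 38.4 CPM in replicate 1. It was called lower (log2 ratio -1.13, adjusted p = 0.00926 by Fisher's exact test). Tmem70 was the most read of the list, with 122 CPM in replicate 2 and 130 CPM in replicate 1. Coa1 had no reads.

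The 7 subunits made by the mitochondrial genome, which form the proton-pumping core of the membrane arm, had a sum of 779 CPM in replicate 2 and 567 CPM in replicate 1. Of the 5 that could be tested, mt-Nd5 was higher in replicate 2, with 160 CPM there and 51.7 CPM in replicate 1 (log2 ratio 1.61, adjusted p = 4.42e-17 by Fisher's exact test), and 0 were lower. mt-Nd1 had 267 CPM in replicate 2 and 205 CPM in replicate 1, with no call. The short mt-Nd3, mt-Nd4l and mt-Nd6 had between 1 and 9 reads per library.

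Related genes outside the rule were few. Ndufb1-ps is named as a pseudogene and had 153 CPM in replicate 2 and 273 CPM in replicate 1 (from 180 and 412 reads), within the range of the members. Its log2 ratio was -0.83 with an adjusted p of 1.09e-09 by Fisher's exact test, short of the 2-fold minimum. Ndufa4l2, a hypoxia-induced relative of Ndufa4, had 4 reads in replicate 2 and 3 in replicate 1. Ndufb4c had 1 in each.

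Promoters were examined because many nuclear genes of respiration are known targets of nuclear respiratory factors. RefSeq windows on GRCm38.p6 from 250 bases before to 50 bases after the start were matched for 33 of the 37 members and searched on both strands. The NRF1 motif GCGCANGCG was in the windows of 8 members (24.2%), against 7.03% of 27025 genes. The YY1 motif AAGATGGCG was in those of 5 members (15.2%), against 1.64% of genes. The ETS motif CCGGAAG was in 4 (12.1%, against 9.93%) and AAGGTCA, the motif of oestrogen-related receptors, in 3 (9.09%, against 5.38%). A match is only a run of letters and does not show binding. None of the 5 YY1 matches lay before the start, and in each the ATG of the motif is the annotated start codon of the gene. The 5 are Ndufa9, Ndufc1, Ndufs4, Ndufs6 and Ndufs7, and only Ndufs6 also held the NRF1 motif.

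The YY1 matches are given with the motif in capitals, since they show how the match and the start codon coincide, followed by 3 of the NRF1 matches. Windows are 30 bases, in the direction of the gene. Ndufa9 is chr6:126849096-126849125 (minus strand), Ndufc1 chr3:51408914-51408943 (minus), Ndufs4 chr13:114388045-114388074 (minus), Ndufs6 chr13:73328433-73328462 (minus) and Ndufs7 chr10:80249463-80249492 (plus). The NRF1 windows are Ndufs6 at chr13:73328478-73328507 (minus), Ndufs5 at chr4:123718265-123718294 (minus) and Ndufb10 at chr17:24724406-24724435 (minus).
Ndufa9 YY1: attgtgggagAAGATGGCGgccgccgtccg
Ndufc1 YY1: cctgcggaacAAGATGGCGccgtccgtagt
Ndufs4 YY1: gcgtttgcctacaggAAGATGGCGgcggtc
Ndufs6 YY1: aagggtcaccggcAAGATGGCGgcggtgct
Ndufs7 YY1: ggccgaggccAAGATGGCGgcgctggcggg
Ndufs6 NRF1: gactgctgtgCGCCTGCGCcggcacttggt
Ndufs5 NRF1: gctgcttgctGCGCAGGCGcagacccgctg
Ndufb10 NRF1: tcacctttctGCGCAGGCGtagaggtcccg
In Ndufs6 the NRF1 letters stand on the opposite strand and read as their reverse complement.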

How the data were processed

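Long-read RNA sequencing libraries of 2 gastrocnemius samples were analysed. The deposited tables hold raw counts of reads per transcript model, which per the README files deposited by the authors came from filtered alignments to mm10 and the annotation of GENCODE M21. The models were made with TALON, as the deposited GTF files record in their source column. Aligner, sequencing platform, versions and filters: not given in the sources used here.

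For each annotated gene the counts of all classes were added and divided by the table's total (CPM). From 10 reads on, summed over libraries, a gene entered Fisher's exact test (two-sided, Benjamini-Hochberg adjusted). A call needed 2-fold and an adjusted p under 0.05. Log2 ratios had a pseudocount of 1, which understates the ratio of low genes. Models were matched between libraries by intron chain, unspliced unannotated ones pooled per gene, and the dominant entry tested where a gene had at least 20 reads in each library. Intervals of shares are exact 95% Clopper-Pearson, and those of CPM are exact 95% Poisson. All exons of the 102 annotated Nduf transcripts with reads equalled those in GENCODE M21. On simulated Poisson counts the gene step recovered 94.0% of 200 genes changed 4-fold, with 8 false calls among the unchanged genes of 9048 tested. The changed genes had at least 50 reads over both libraries, while the test admitted genes from 10 reads and called from 2-fold. Recovery of smaller changes was not tested. The isoform step recovered 100.0% of 200 genes whose dominant share was cut to 0.6 of itself, with 5 false calls among the unchanged genes of 4442 tested. The genes changed in the isoform step had at least 200 reads in each library, while the test itself admitted genes from 20 reads. Its recovery at lower counts, where members such as Ndufs5 and Ndufs6 lie, was not tested. Scaling factors came from edgeR 4.0.16 and DESeq2 1.42.0 in R 4.3.3, copies from blastn 2.17.0, the rest from Python 3.11.15 with numpy 2.4.6, pandas 2.3.3 and scipy 1.17.1.

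The members, lists and tests were chosen with earlier results of these data known. Named genes were all members (the values of 1 are not reported here, and counts include it), the assembly factors and mitochondrially encoded subunits, other Nduf genes, marker lists, entries with at least 10% of a member's reads and the 5 lowest p of usage. Ndufa5-202, Ndufab1-201, Ndufv3-201, the pseudogene BC002163 and Yjefn3 were named after their values were seen. Models are given with merged ends, so lengths of incomplete models are approximate.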

Additional observations from a re-analysis of the deposited data

How the results depend on the processing

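No paired analysis was possible because the series has 1 group. The count of members called lower in replicate 2 was 1 as reported, 5 with TMM scaling and 5 with DESeq2 size factors, and 0 when annotated transcripts alone were counted, when incomplete and genomic reads were left out, and when ratios were centred on length. Without a fold minimum, 2 members were higher and 24 lower. The same single member was called with no read minimum, at 50 reads, with a pseudocount of 5, with the deeper library thinned and with spike-ins left out of the total. The median ratio went to -0.01 when centred on length. The ratio of Ndufa4, the called member, stayed below 0 in each setting. Centred on length, 18 of 36 members lay above 0, against 4 of 37 as reported, so signs of uncalled ratios did change. Member reads were 1.57% of annotated-transcript reads. The share was between 1.02% and 1.33% with a library left out, the annotated class between 80.7% and 83.5%, the incomplete class between 13.6% and 17.3%, and the median dominant share between 93.8% and 94.6%. As medians over members, those classes were 95.8% and 1.44%. With annotated transcripts alone, 1 member passed the usage test (Ndufab1) and the median dominant share was 99.5%. The rank correlation with length was 0.41 with the longest transcript. Restricting promoters to the bases before the start lowered NRF1 matches to 18.2% of members and YY1 to 0%. The shares over all genes fell too, to 5.86% for NRF1 and 0.71% for YY1. As counted, the least read members in replicate 2, Ndufs5 and Ndufs6, had 61 and 70 reads there, which gives intervals of 39.8 to 66.8 CPM and 46.5 to 75.4 CPM.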
